A study of Mus musculus with 4 samples.

Results

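Collagens, laminins and their closest partners in the extracellular matrix were examined in mouse embryos with a mutation in Btaf1. The set held all genes whose name in the array files was a collagen chain, a laminin chain, Nid1, Nid2, Hspg2, Fn1 or Sparc, a rule that reads names and no measured value. It came to 57 genes on 108 probes, beside 13200 named genes that could be tested on the whole array. They were divided into 23 basement membrane genes (11 laminin chains, 9 basement membrane collagens, and both nidogens with perlecan), 11 fibrillar collagens, 21 other collagens, and Fn1 with Sparc.

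Basement membranes are thin sheets under epithelia and around vessels. Laminins, each a trimer of an alpha, a beta and a gamma chain, and collagen IV, a trimer of alpha chains, form separate networks in them, joined by nidogens and perlecan. In the early postimplantation mouse embryo the parietal endoderm lays down large amounts of laminin and collagen IV in Reichert's membrane, outside the embryo proper. Fibrillar collagens form the rope-like fibres of connective tissue and cartilage, and are made mainly by mesenchyme, while collagen II is also made by notochord.

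Pooled whole embryos carrying the ENU-induced point mutation V1330M on both copies of Btaf1 were compared with pooled Btaf1+/+ embryos; BTAF1 is an ATPase that takes the TATA-binding protein TBP off DNA. All embryos were C57BL/6J *FVB/NJ hybrids carrying 50 to 90% FVB, and were taken at 3 to 5 somites where possible, without an agent or treatment named. In the stage_matched set the pools were matched by somite count, and in the age_matched set litter mates had priority and somite numbers could differ by up to 5. Each set was 1 mutant pool against 1 wild-type pool on 2 two-colour arrays, 1 with the mutant RNA in Cy5 and 1 with the dyes exchanged, with 300 ng of RNA per dye. Embryos per pool, whether the sets shared a pool or embryos, and whether yolk sac or Reichert's membrane was left on, were not given in the sources used here.

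On the 4 arrays, 52.9 to 59.6% of 43379 spots per array were well above background. The Btaf1 probe, whose transcript is not removed by a point mutation, read 0.10 ± 0.03 (log2, n = 2; limma adjusted p = 0.555) and so does not check the labels. All 6 axis markers and all 6 heart markers listed for an embryo of this age were well above background, and so were all 11 visceral endoderm and all 7 parietal endoderm markers. Sex-linked transcripts turned between the sets: Xist read -1.0 with stage matching and 0.77 with age matching, and the Y-linked Ddx3y 0.41 and -0.85. Prl8a2, a prolactin-family gene of the maternal decidua, read -0.94 and 0.51.

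Every value below is a log2 ratio of mutant over wild type, so 1 is a 2-fold higher and -1 a 2-fold lower level in the mutant. Array values are given in the order stage_matched with the mutant in Cy5, stage_matched with the mutant in Cy3, age_matched with the mutant in Cy5, age_matched with the mutant in Cy3. Means and SDs are those of the 2 set values (n = 2), and each gene is read by its brightest tested probe. Adjusted p values are from limma, adjusted by Benjamini-Hochberg across the 21940 probes tested, and a gene was called at an adjusted p under 0.05. With 2 pairs of pools, p values and intervals rest on the spread between these pairs, which are not independent if they shared embryos. For each gene limma draws that spread towards the typical spread of all tested probes. The gene's own spread has 1 degree of freedom and the typical spread 7.12. Col11a2 thus had an SE of 0.091 at an SD of 0.0007, and Col3a1 an SE of 0.16 at an SD of 0.53.

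Of the 57 genes, 43 were well above background in at least 1 genotype on all 4 arrays and were tested. In 37 of them both genotypes were. The other 14 had no tested probe, and 8 of them, Col15a1, Col4a3, Col5a3, Col10a1, Col20a1, Col28a1, Col6a3 and Col6a5, were not above background on any array. At adjusted p under 0.05, 1 of 43 was called higher, Sparc, against 2.13% of all tested genes, and 1 of 43 was called lower, Col2a1, against 2.74%. The median was 0.01 over the 43 genes and 0.02 over all tested genes. Before adjustment 13 genes had a p under 0.05, 6 higher and 7 lower, a share not far above the 22.5% of all tested genes. For all 41 genes that were not called the 95% confidence interval lay within a 2-fold change, and for 39 of them within 1.5-fold. Of all 12557 tested genes that were not called, 12533 and 12013 lay within these limits. The intervals of the collagen and laminin genes were typically 0.22 to either side of the mean and are not adjusted for the number of genes.

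Col2a1, the chain of collagen II in cartilage and notochord, was the collagen that fell. Its values were -0.35, -0.48, -0.84 and -0.39, all below 0, with the age_matched array carrying the mutant in Cy5 lowest and the sets overlapping. The mean was -0.52 ± 0.14 (adjusted p = 0.0290), a 1.43-fold lower level with a 95% confidence interval of -0.74 to -0.29. A further Col2a1 probe read -0.45, -0.46, -0.91 and -0.31, with a mean of -0.53 ± 0.11 (adjusted p = 0.0248). It was printed 10 times per array, and the SD between its spots on an array was 0.067 to 0.188.

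Both Col2a1 probes are given because they overlap and so do not measure the gene independently. They are listed 5′ to 3′ with the 40 bases they share in capitals. They start at bases 4601 and 4621 of the transcript and lie at chr15:97806505-97806564 and chr15:97806485-97806544 on the minus strand of mm9.
Col2a1, brightest probe: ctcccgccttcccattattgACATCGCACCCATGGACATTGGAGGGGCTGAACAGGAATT
Col2a1, further probe: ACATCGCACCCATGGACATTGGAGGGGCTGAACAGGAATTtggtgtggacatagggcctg

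With 1 array left out, its set holds 1 array, and a difference between the dyes no longer cancels in that set. The call of Col2a1 was lost under several alternatives. Its brightest probe read -0.40 without the age_matched array carrying the mutant in Cy5 (adjusted p = 0.345), -0.63 without the other age_matched array (adjusted p = 0.0523) and -0.50 with no background correction (adjusted p = 0.0706). The further probe read -0.38 (adjusted p = 0.371), -0.68 (adjusted p = 0.0442) and -0.52 (adjusted p = 0.0665) under the same changes, and so kept its call without the age_matched array carrying the mutant in Cy3. In whole embryos, fewer cells of a type and less RNA per cell cannot be told apart. Of 4 tested notochord markers 0 were called by limma, and 2 of them had an unadjusted p under 0.05: T read 0.41, Shh 0.33, Foxa2 0.21 and Chrd 0.12. Of 5 tested sclerotome and cartilage regulators 1 was called, Foxc2 at 0.47 (adjusted p = 0.0446). Sox9, which drives Col2a1 in cartilage, read -0.12, Sox6 -0.29 and Pax1 -0.41. Pax1 was well above background on all 4 arrays in wild type but on 3 in the mutant. The part of these cells in the Col2a1 value was not tested.

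Of 9 tested fibrillar collagens, Col2a1 was called lower, against 2.74% of all tested genes, and 8 were not called. Before adjustment 3 had a limma p under 0.05, Col2a1, Col1a2 and Col11a2, all of them lower. Of all 13200 tested genes, 1453 were lower by the same measure. Whether the class moved as a group was not tested. Among the 9, 3 means were positive and 6 negative, and the median was -0.08. It stayed negative with median centring (-0.19, beside -0.05 over all tested genes) and in the authors' deposited value table (-0.05). Collagens XXIV and V alpha 3 (Col24a1 and Col5a3) were not tested.

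Collagen I is the main collagen of connective tissue, made of Col1a1 and Col1a2 chains. Col1a2 read -0.38, -0.55, -0.66 and 0.18, with a mean of -0.35 ± 0.16 (adjusted p = 0.0847), below 0 on 3 of 4 arrays. Col1a1 read -0.06, -0.16, 0.10 and 0.69, with a mean of 0.14 ± 0.36 (adjusted p = 0.563). Both chains were highest on the age_matched array with the mutant in Cy3. On that array the 9 used spots of the Col1a1 probe had an SD of 0.080.

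Col3a1, the chain of collagen III that accompanies collagen I in soft tissue, was the 1 gene of 43 whose sets differed at an adjusted p under 0.05, against 2.11% of all tested genes. It read 0.09, 0.43, -0.56 and -0.41, so that both stage_matched arrays lay above 0, both age_matched arrays below it, and the sets did not overlap. The age_matched set was thus lower by a log2 difference of -0.75 (SE 0.17, adjusted p = 0.00314), and the mean over both sets was -0.11 ± 0.53 (adjusted p = 0.731). The error of this difference comes from the exchange of dyes on the same pools and holds no spread between embryos. The call was lost with no background correction (-0.72, adjusted p = 0.319), with median centring (-0.97, adjusted p = 1.0) and in the authors' deposited value table (-0.77, adjusted p = 0.128).

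Other values moved between the sets beside Col3a1. The heart markers had a median of -0.67 with stage matching and -1.51 with age matching, and 4 of 6 differed between the sets. Prl8a2, Xist and the Y-linked genes turned sign between them, as given above. Their part in the Col3a1 difference was not tested.

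Col11a1 and Col11a2 encode chains of collagen XI, which sits inside collagen II fibrils. Col11a2 read -0.43, -0.13, -0.33 and -0.23, below 0 on every array, with a mean of -0.28 ± 0.00 (adjusted p = 0.120), while its other tested probe had a mean of -0.04. Col11a1 stayed near 0 at -0.08 ± 0.00 (adjusted p = 0.682). Collagen V starts and thins collagen I fibrils. Its chain Col5a2 read 0.49, 0.25, 0.09 and 0.03 (mean 0.22 ± 0.22, adjusted p = 0.272), and Col5a1 had a mean of -0.07. Col27a1, a fibrillar collagen of cartilage, had a mean of 0.22 ± 0.16 (adjusted p = 0.235), positive on all 4 arrays. Its probe was well above background on all 4 arrays in the mutant but on 3 in wild type.

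**Figure D1:**
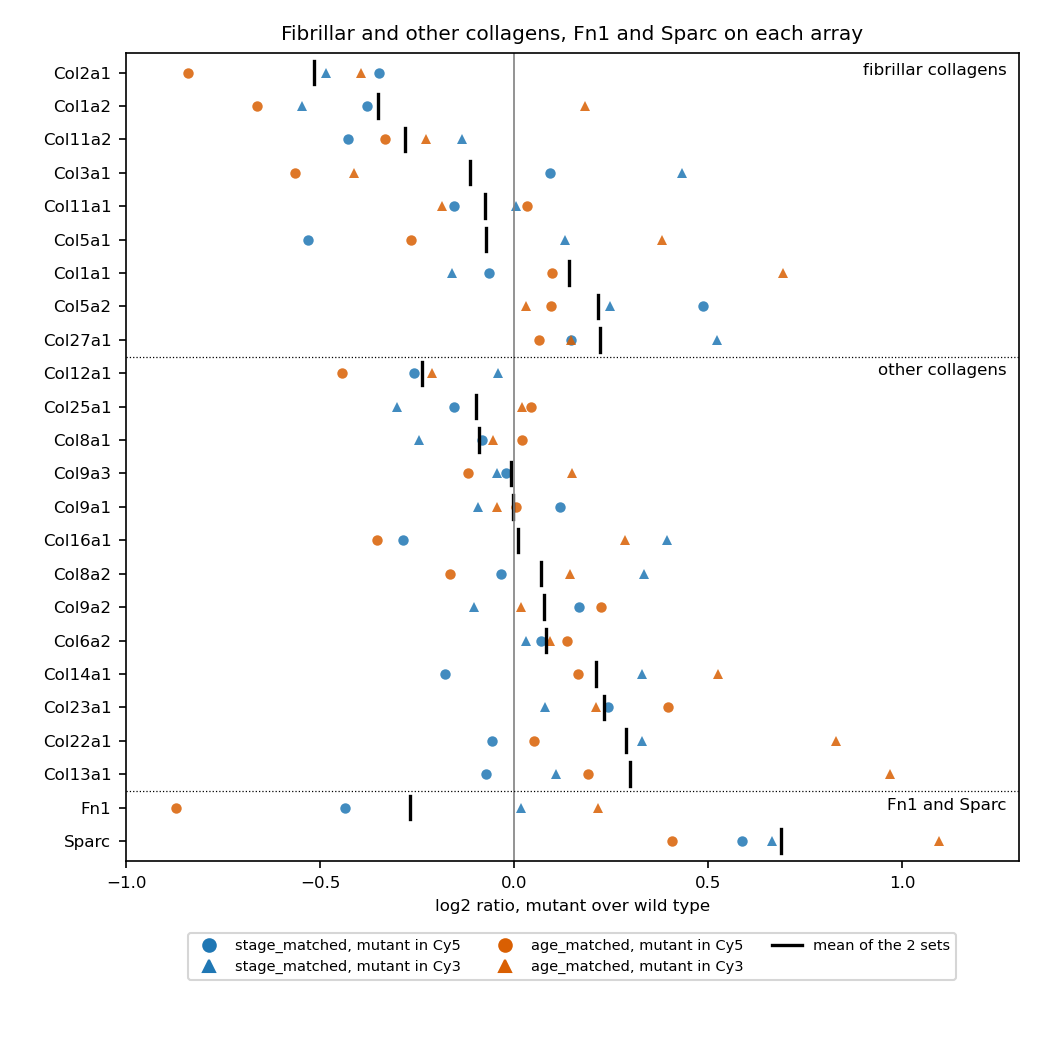
Log2 ratio of mutant over wild type (horizontal axis) on each of the 4 arrays for the tested fibrillar collagens, other collagens, Fn1 and Sparc; colour gives the set, circles the mutant in Cy5, triangles the mutant in Cy3, and the black line the mean of the 2 sets. All 4 points lie below 0 for Col2a1 (mean -0.52) and above 0 for Sparc (mean 0.69), and the colours separate for Col3a1.

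Sparc, which encodes the collagen-binding glycoprotein osteonectin found in basement membranes and mineralised tissue, was the gene called higher. It read 0.59, 0.67, 0.41 and 1.1, all above 0 and with overlapping sets. The mean was 0.69 ± 0.09 (adjusted p = 0.0127), a 1.61-fold higher level with a 95% confidence interval of 0.47 to 0.90.

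A dimmer Sparc probe did not share the direction. It read -0.34, -0.25, -0.07 and -0.36, all below 0, with a mean of -0.26 (adjusted p = 0.149). The average of both probes was 0.22 (adjusted p = 0.154), so the call belongs to the brightest probe and not to the gene as a whole.

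Both Sparc probes are shown because their place in the transcript differs. The brightest starts at base 2229 of the transcript and lies at chr11:55208013-55208072 on the minus strand of mm9; its last 30 bases are given with AATAAA, the usual polyadenylation signal, in capitals. The dimmer starts at base 980 and its ends lie 2658 bases apart, at chr11:55209449-55212106, so it crosses a splice junction; no base of it is singled out.
Sparc, brightest probe, last 30 bases: gacaagtctttcaaAATAAAaagtaacaac
Sparc, dimmer probe: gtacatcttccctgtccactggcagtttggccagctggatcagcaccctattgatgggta

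Leaving out 1 array leaves its set with 1 array, so a dye effect no longer cancels there. The Sparc call was also lost under several alternatives. It read 0.86 without the age_matched array carrying the mutant in Cy5 (adjusted p = 0.114), 0.52 without the other age_matched array (adjusted p = 0.0648) and 0.68 with no background correction (adjusted p = 0.0538). Sparc is abundant in parietal endoderm. Of 7 tested parietal endoderm markers, Plat was called higher (0.50, adjusted p = 0.0274) and Tfpi lower (-0.50, adjusted p = 0.0274), and 5 were not called, among them Thbd at 0.36 and Pth1r at -0.35. The list's median was 0.01, and its part in the Sparc value was not tested.

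Fn1 encodes fibronectin, the matrix glycoprotein through which many embryonic cells attach and migrate. Its probe, printed 10 times per array, read -0.44, 0.02, -0.87 and 0.22, for a mean of -0.27 ± 0.08 (adjusted p = 0.139). The low values were those of the Cy5-labelled mutant: they averaged -0.65 with the mutant in Cy5 and 0.12 with the mutant in Cy3. Its other tested probe showed the same split more widely, with -0.78, 0.19, -1.17 and 0.79.

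Splits by dye were common on these arrays. In 25 of 43 genes both arrays of 1 dye orientation lay outside the range of the other, as in 54.3% of all tested genes. In 16 of the 25, and in 3506 of the 7171 such genes on the whole array, the arrays with the mutant in Cy5 were the lower ones. A dye effect of this kind cancels in the mean of a set, but it widens the 4 array values of Fn1, Hspg2, Col16a1, Col5a1 and Lamc1, which had the widest dye splits among the 43.

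Among basement membrane genes, 0 of 19 tested were called in either direction by limma, beside 2.13% higher and 2.74% lower of all tested genes. Before adjustment 5 had a p under 0.05, beside 22.5% of all tested genes. Col18a1, Col4a5 and Col4a6 were higher and Lama1 and Lama4 lower. The median of the 19 was 0.04, beside 0.02 over all tested genes, and with median centring it was -0.04, beside -0.05. The 2 set medians of all 19 were -0.01 (stage_matched) and 0.11 (age_matched).

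Laminin chains gave 9 tested genes with 0 called, 2 of them with an unadjusted p under 0.05, and a median of -0.02. Of all tested genes 22.5% had such a p. Laminin-111, the laminin of the earliest basement membranes, is made of Lama1, Lamb1 and Lamc1 chains. Lama1 read -0.19, -0.04, -0.60 and -0.16, below 0 on all 4 arrays, with a mean of -0.25 ± 0.19 (adjusted p = 0.194). Lamb1 read 0.08, -0.03, 0.11 and -0.28 (mean -0.03 ± 0.08, adjusted p = 0.872). Lamc1 read -0.25, -0.07, -0.38 and 0.60 (mean -0.02 ± 0.19, adjusted p = 0.917). All 3 means were below 0, those of Lamb1 and Lamc1 close to it, and Lamc1 was above 0 on 1 array.

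Lama4, a laminin alpha chain of blood vessels, had the narrowest range of the laminin chains, -0.23, -0.25, -0.25 and -0.27. Its mean of -0.25 ± 0.01 was not called (adjusted p = 0.155), and its other tested probe had a wider spread, -0.61, 0.19, -0.56 and -0.24, around a mean of -0.31. Of 7 endothelial markers, Kdr was called lower (-0.54, adjusted p = 0.0333) and 6 were not called, and the list's median was -0.22. Of the 7 means 1 was positive, Sox17 at 0.30, and Flt1 read -0.07. The part of endothelial cells in the Lama4 value was not tested. Lama5, the broadly expressed alpha chain that follows Lama1 in development, read -0.17, 0.13, 0.13 and 0.35 (mean 0.11 ± 0.19, adjusted p = 0.571). Lamb2, the beta chain of synapse and kidney basement membranes, had a mean of -0.19 ± 0.13 (adjusted p = 0.282).

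Of the remaining laminin chains described here, Lama3 was at 0.00 ± 0.01 (adjusted p = 0.991), and Lamb3 had no tested probe. Lamc3 read 0.19, 0.03, 0.22 and 0.06, above 0 on all 4 arrays, with a mean of 0.12 ± 0.02 (adjusted p = 0.467). Its probe was well above background on all 4 arrays in wild type but on 3 in the mutant. Lama2, the alpha chain of muscle, was not tested.

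Collagen IV chains are encoded in head-to-head pairs, and the means of 2 pairs lay on different sides of 0 without any chain being called by limma. Col4a1 and Col4a2 form the collagen IV of most basement membranes. Col4a1 read 0.12, -0.18, -0.09 and -0.22 (mean -0.10 ± 0.09, adjusted p = 0.596). Col4a2 read -0.36, -0.02, -0.37 and -0.06 (mean -0.20 ± 0.02, adjusted p = 0.236), below 0 on every array. A second probe gave a mean of -0.13 for Col4a1 and -0.17 for Col4a2.

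The region of the Col4a1 and Col4a2 starts is shown because both annotated starts fall within it, on opposite strands. It lies at chr8:11312801-11312830 on the plus strand of GRCm38.p6, from RefSeq, and the capitals mark the 22 bases from the Col4a2 start to the Col4a1 start, which belong to the first bases of both annotated genes.
Col4a1 and Col4a2 starts: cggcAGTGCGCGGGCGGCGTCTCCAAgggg

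Col4a5 and Col4a6, whose starts lie 1344 bases apart on the X chromosome in the same reference, encode chains of other collagen IV trimers. Col4a5 read 0.33, 0.17, 0.43 and 0.29, above 0 on all 4 arrays (mean 0.30 ± 0.08, adjusted p = 0.104). Col4a6 read 0.40, 0.04, 0.47 and 0.71, also above 0 on all 4 (mean 0.41 ± 0.26, adjusted p = 0.0803). Both were higher in the mutant in each set, 0.25 and 0.36 for Col4a5 and 0.22 and 0.59 for Col4a6. Xist read -1.0 and 0.77 in the same sets. The part of the sex of the embryos in these values was not tested. Further Col4a6 probes had means of 0.20 and 0.12. Col4a5 was called in the authors' deposited value table (0.53, adjusted p = 0.0291). Without the stage_matched array carrying the mutant in Cy3, where a dye effect does not cancel in that set, Col4a6 read 0.49. The third pair held Col4a4 at 0.04 ± 0.00 (adjusted p = 0.827) and Col4a3, which was not well above background on any array.

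Col18a1, the collagen whose end fragment is endostatin, read 0.09, 0.30, 0.01 and 0.61, with a mean of 0.25 ± 0.08 (adjusted p = 0.155); its other tested probe had a mean of -0.01. Col7a1, the anchoring fibril collagen of skin, was also positive on all 4 arrays, with a mean of 0.20 ± 0.17 (adjusted p = 0.280). The linkers between the networks had means close to 0, with array values spread to either side. Nid1 read -0.06, 0.04, -0.53 and 0.31 (mean -0.06 ± 0.07, adjusted p = 0.753). Nid2 read 0.14, -0.31, 0.38 and -0.06 (mean 0.04 ± 0.18, adjusted p = 0.858). Hspg2, which encodes the proteoglycan perlecan, read -0.43, 0.36, -0.09 and 0.61 (mean 0.11 ± 0.20, adjusted p = 0.576), with both positive values on the arrays carrying the mutant in Cy3.

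**Figure D2:**
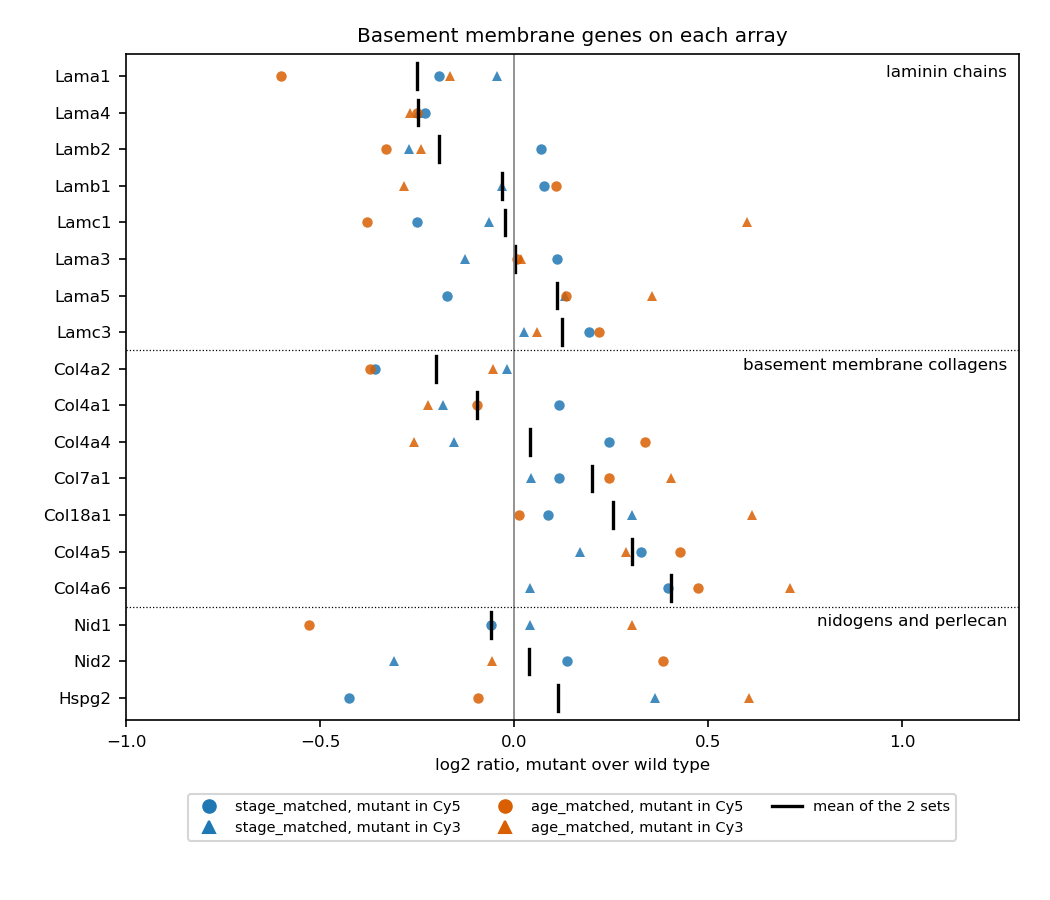
Log2 ratio of mutant over wild type (horizontal axis) on each of the 4 arrays for the tested basement membrane genes described in the text, in their 3 classes; colour gives the set, circles the mutant in Cy5, triangles the mutant in Cy3, and the black line the mean of the 2 sets. Col4a5 and Col4a6 lie above 0 on every array and Lama1, Lama4 and Col4a2 below 0, with means between -0.25 and 0.41.

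The other collagens include the network, fibril-associated and transmembrane types. Of 13 tested genes 0 were called by limma and 3 had an unadjusted p under 0.05, against 22.5% of all tested genes. Their median was 0.07, or 0.01 with median centring. The highest means were Col13a1 at 0.30 ± 0.40 (adjusted p = 0.232), Col22a1 at 0.29 ± 0.21 (adjusted p = 0.155) and Col23a1 at 0.23 ± 0.10 (adjusted p = 0.193). Col13a1, a transmembrane collagen of cell contacts, read -0.07, 0.11, 0.19 and 0.97, so its mean came largely from 1 array. The difference between its sets was 0.56 and was not called (adjusted p = 0.0609). When the probes of each gene were averaged the adjusted p was 0.0430, with the same difference, since Col13a1 has 1 tested probe. Col23a1, another transmembrane collagen, was above 0 on all 4 arrays with both of its tested probes, each with a mean of 0.23.

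Lowest was Col12a1, a collagen on the surface of collagen I fibrils, which read -0.26, -0.04, -0.44 and -0.21 (mean -0.24 ± 0.13, adjusted p = 0.190). Col25a1 had a mean of -0.10 and Col8a1, a short-chain collagen of vessels, of -0.09. Col12a1, Col25a1 and Col8a1 were well above background on all 4 arrays in wild type but on 3 in the mutant. The chains of collagen IX, which decorates collagen II fibrils, all lay near 0, with means from -0.01 (Col9a3) to 0.08 (Col9a2). Col6a2 was the tested chain of collagen VI, at 0.08 ± 0.05 (adjusted p = 0.652).

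Both sets gave the same sign for 29 of 43 genes (67.4%), close to the 68.3% of all tested genes. All 4 arrays agreed in sign for 17 of 43 (39.5%), against 28.4% of all tested genes, 11 of them positive and 6 negative. These shares were not tested.

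**Figure D3:**
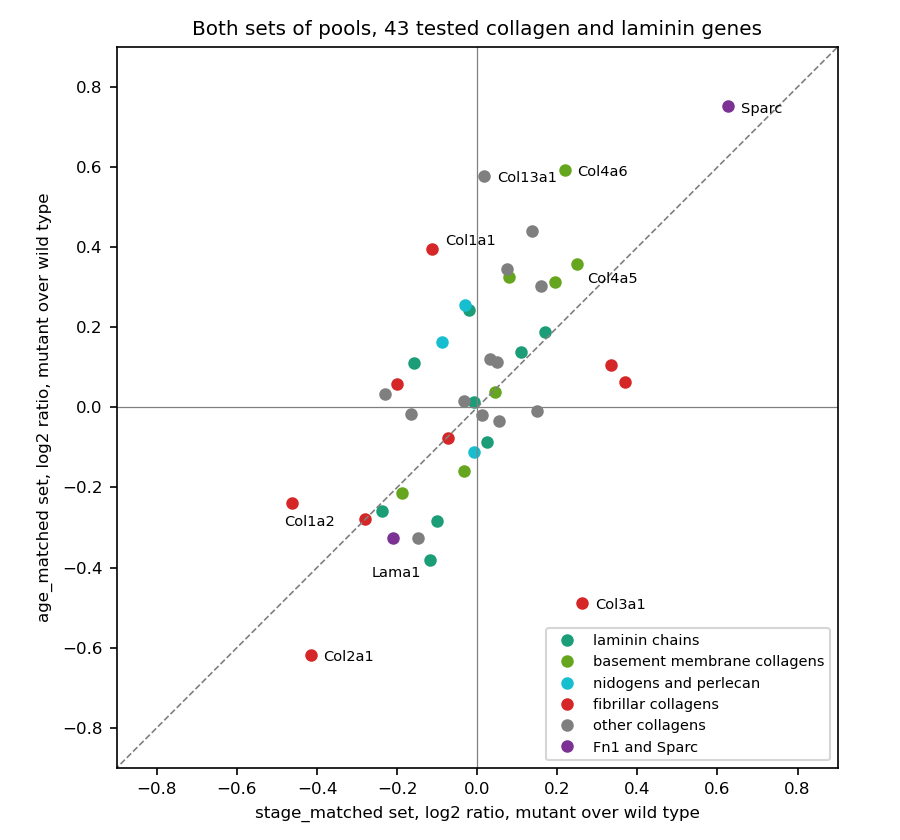
Mean log2 ratio of mutant over wild type in the age_matched set (vertical axis) against the stage_matched set (horizontal axis) for the 43 tested genes, coloured by class; the dashed line marks equal values. Sparc lies at the upper right (0.63 and 0.75), Col2a1 at the lower left (-0.42 and -0.62), and Col3a1 stands apart at 0.26 and -0.49.

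Of the 43 genes, 10 had more than 1 tested probe, and in 8 of them the means of all probes shared their sign. The exceptions were Sparc and Col18a1. For Lama4 and for Col27a1, a further probe well above background was left out because the scanner software had marked a spot.

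**Figure D4:**
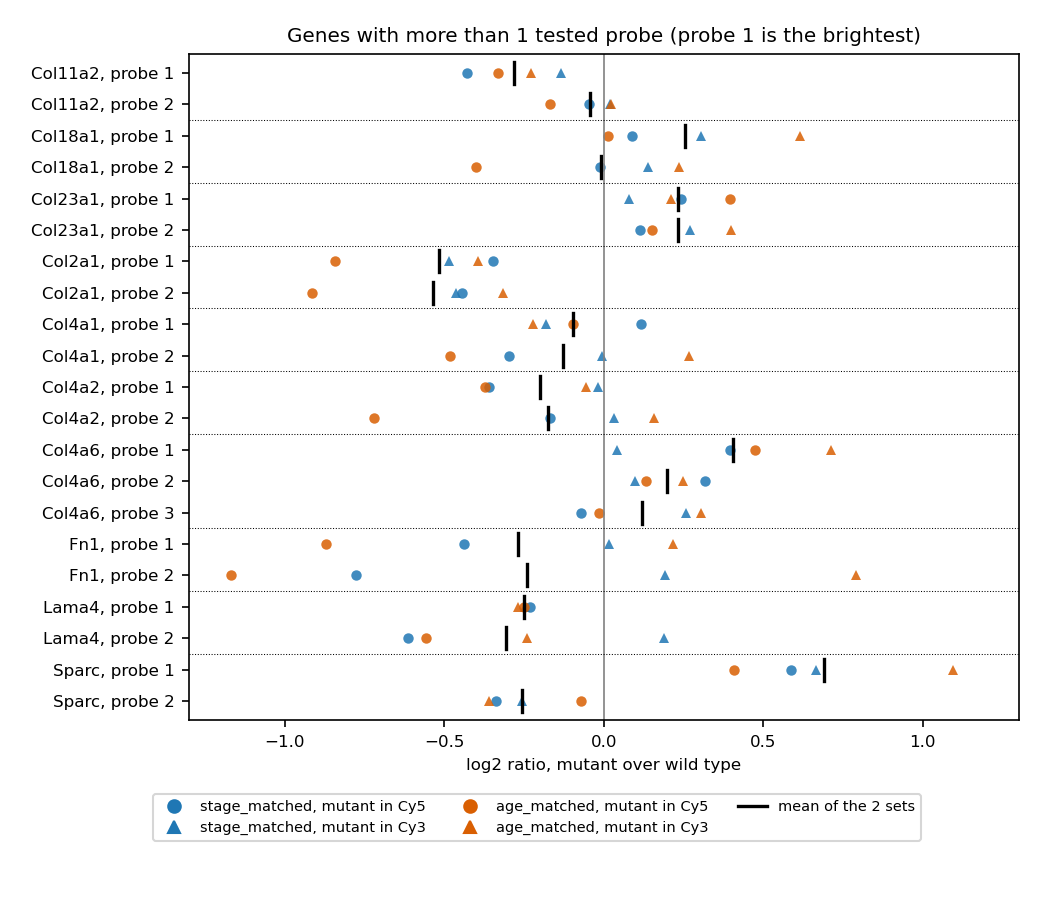
Log2 ratio of mutant over wild type (horizontal axis) on each of the 4 arrays for every tested probe of the 10 genes with more than 1, ordered within a gene by brightness; colour gives the set, circles the mutant in Cy5, triangles the mutant in Cy3, and the black line the mean of the 2 sets. The Col2a1 probes lie together (-0.52 and -0.53), and the Sparc probes on opposite sides of 0 (0.69 and -0.26).

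Genes that make, bind or cut this matrix were counted in 4 lists. Of their 76 tested genes, 3 were called higher and 4 lower, beside 2.13% and 2.74% of all tested genes. Of 25 tested genes of collagen processing, 1 was called higher and 0 lower. Pcolce2, an enhancer of the enzyme that trims procollagen ends, read 0.35, 0.33, 0.82 and 0.78, with a mean of 0.57 ± 0.33 (adjusted p = 0.0406). P4hb, a subunit of the prolyl hydroxylase that stabilises the collagen helix, was lowest at -0.34 ± 0.27 (adjusted p = 0.129), and Loxl2, a crosslinking oxidase, read -0.29. Plod2, a lysyl hydroxylase, read 0.26. The list's median was -0.07.

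No receptor was called by limma: of 19 tested matrix receptors 0 passed, and the median was 0.01. An unadjusted p under 0.05 was found for 4 of the 19, against 22.5% of all tested genes. Integrin chains Itgb5 (0.30, adjusted p = 0.108) and Itgav (0.30, adjusted p = 0.128) were highest. Dag1, which encodes the laminin receptor dystroglycan, was lowest at -0.28 (adjusted p = 0.125). Itgb1, the beta chain shared by most laminin and collagen receptors, read -0.11 (adjusted p = 0.642).

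Of 21 other matrix proteins, 1 was called higher and 3 lower, against 2.13% and 2.74% of all tested genes. Postn, the matricellular protein periostin of heart valves and connective tissue, read -0.87, -0.52, -1.13 and -1.10 (mean -0.91 ± 0.29, adjusted p = 0.0111). Lum, a small proteoglycan that binds collagen fibrils, read -0.33, -0.74, -1.06 and -0.87 (mean -0.75 ± 0.30, adjusted p = 0.0190). The fibrillins, which form microfibrils, went opposite ways. Fbn2 fell to a mean of -0.56 ± 0.20 (adjusted p = 0.0270), below 0 on all 4 arrays, and Fbn1 rose to 0.55 ± 0.19 (adjusted p = 0.0284), above 0 on all 4. Smoc1, a relative of Sparc, read 0.28 (adjusted p = 0.122).

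Of 11 genes of matrix breakdown, 1 was called higher and 1 lower. Timp1, an inhibitor of matrix metalloproteinases on the X chromosome, read 0.40, 0.47, 0.44 and 0.49 (mean 0.45 ± 0.02, adjusted p = 0.0356). Mmp14, a membrane-bound collagenase, read -1.32, -0.26, -0.46 and -0.17 (mean -0.55 ± 0.34, adjusted p = 0.0453). Without the stage_matched array carrying the mutant in Cy5 it read -0.29 (adjusted p = 0.261). Mmp9 read 0.32 (adjusted p = 0.0932) and Adamts1 -0.36 (adjusted p = 0.0733). In each fit without 1 array a dye effect no longer cancels in the set of that array. All 7 called genes of these lists lost their call with no background correction (adjusted p from 0.0593 to 0.0987) and without the age_matched array carrying the mutant in Cy5 (adjusted p from 0.110 to 0.384). Without the age_matched array carrying the mutant in Cy3, Fbn1, Fbn2, Pcolce2 and Timp1 lost it (adjusted p from 0.0519 to 0.0881). The calls of Timp1, Fbn1 and Pcolce2 were also lost with median centring (adjusted p of 0.152, 0.0734 and 0.0673) and without the stage_matched array carrying the mutant in Cy5 (adjusted p of 0.0705, 0.189 and 0.0545). With no filter on dim probes Fbn1, Mmp14 and Pcolce2 lost theirs (adjusted p from 0.0504 to 0.0835), as did Mmp14 in the authors' deposited value table (adjusted p = 0.0570) and Timp1 with probe means (adjusted p = 0.0643).

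**Figure D5:**
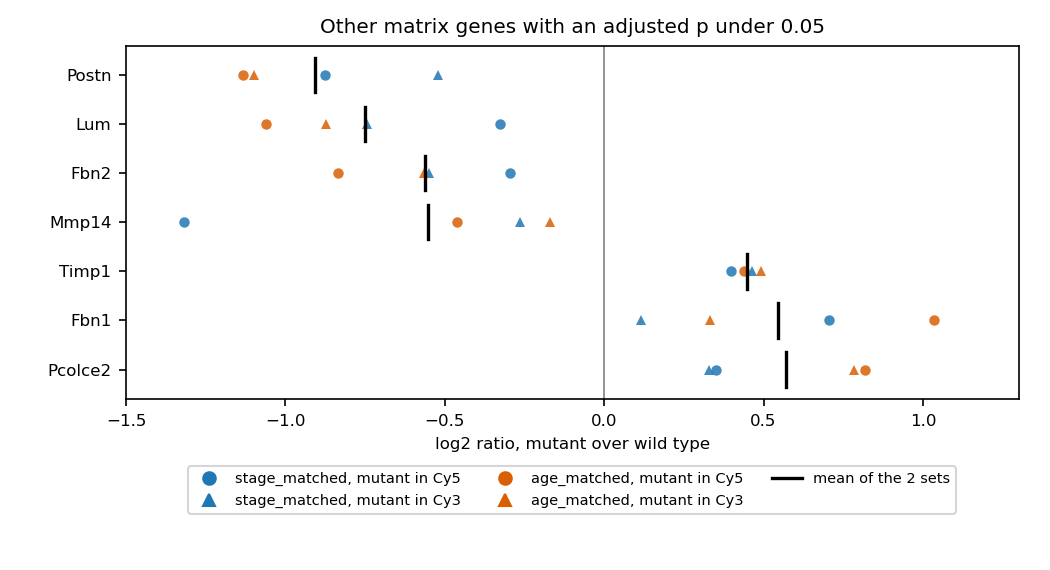
Log2 ratio of mutant over wild type (horizontal axis) on each of the 4 arrays for the 7 genes of collagen processing, matrix proteins and matrix breakdown with an adjusted p under 0.05; colour gives the set, circles the mutant in Cy5, triangles the mutant in Cy3, and the black line the mean of the 2 sets. Postn, Lum, Fbn2 and Mmp14 lie below 0 on every array, and Timp1, Fbn1 and Pcolce2 above 0.

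Marker lists of cell types in and around the embryo were read beside the matrix genes. All 11 visceral endoderm markers were called lower, with means from -1.64 to -0.45. Of 6 heart markers 5 were called lower, from -1.69 to -0.76, with Nkx2-5 not called at -0.18. Of 6 neural crest and mesenchyme markers, Sox10 (-1.05, adjusted p = 0.0166) and Prrx1 (-0.53, adjusted p = 0.0496) were called lower. The other 4 were not called, among them Foxd3 at -0.04 and Tfap2a at -0.02, and all 6 means were negative. In the list of 6 embryo axis markers, Tbx6 (0.89, adjusted p = 0.0248) and Meox1 (0.41, adjusted p = 0.0468) were called higher. The other 4 axis markers were not called, and 3 of the 6 means were negative. The part of the cells of these lists in the values of collagens, laminins, Postn and Lum was not tested.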

How the data were processed

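Spot mean and background intensity per dye were deposited by the authors as scanner output, not normalized, per the file headers. The log10 ratio (Cy5 over Cy3), background-subtracted and dye-normalized by Feature Extraction per the file headers, makes up the authors' deposited value table, with the sign turned on dye-exchanged arrays. The labels give Feature Extraction 9.5.3, and the headers 10.5.1.1.

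With limma 3.58.1 (R 4.3.3), intensities were corrected by normexp (offset 50) and loess within arrays, marked spots were left out, and the sign was turned to mutant over wild type. Tested probes (21940 of 41174) were well above background in 1 genotype on all 4 arrays. Each set's arrays were averaged, and an intercept was fitted over the 2 sets with eBayes (7.12 prior degrees of freedom). The set difference was fitted on 4 arrays with set and dye terms. The intercept fit was run on simulated data with independent sets and a dye effect that cancelled exactly in each set. That run does not bear on shared embryos or on other noise between the arrays of a set. The array number limits precision.

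Named were called genes, the extremes of each class or list and a fixed set of core chains. Members and lists were chosen with earlier results of these data known. Positions are those of the files (mm9); exons and untranslated regions are not given, as no annotation of that build was used here. RefSeq tables (GRCm38.p6) gave current symbols and starts. Alternatives: no background correction, median centring, the deposited table, other filters on dim probes, each array left out, probe means. Of the tested laminin chains, 1 is counted but not reported here.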

Additional observations from a re-analysis of the deposited data

Results flagged for a closer look

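Col3a1 differed between the sets of pools. Its log2 ratio of mutant over wild type was 0.26 with stage matching and -0.49 with age matching, a difference of -0.75 (limma with set and dye terms, adjusted p = 0.00314), with both stage_matched arrays above both age_matched arrays. It was the 1 gene of 43 tested whose sets differed, beside 2.11% of all tested genes. With the probes of each gene averaged, Col13a1 differed too (0.56, adjusted p = 0.0430). It has 1 tested probe, so its difference was the same as in the main fit, where it was not called (adjusted p = 0.0609). Nor was it called with no background correction (adjusted p = 0.442), with median centring or in the authors' deposited value table (adjusted p = 0.260). The Col3a1 call was lost with no background correction (adjusted p = 0.319), with median centring (adjusted p = 1.0) and in the authors' deposited value table (adjusted p = 0.128). The error behind these p values is technical, since it comes from hybridising the same pools in both dyes.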

How the results depend on the processing

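Each ratio sets the mutant pool against the wild-type pool on the same array, so the fit already pairs the pools of a set. No further pairing was made. With no background correction 20 probes were higher and 42 lower in place of 365 and 690, 0 collagen or laminin genes were called higher, 0 lower and 0 differed between sets, and the median of other collagens was 0.0395. With median centring 120 probes were higher, 0 genes differed between sets, and the medians were -0.193 for fibrillar and 0.00506 for other collagens. The authors' deposited value table gave 747 higher and 1077 lower probes, 2 genes called higher (Sparc and Col4a5), 0 that differed between sets, and medians of -0.0481 and 0.0866. With no filter on dim probes 209 probes were higher and 386 lower, and the median of other collagens was 0.0322; with both genotypes above background it was 0.0818. With probe means 0 genes were called higher. Leaving out 1 array gave 10 to 394 higher and 13 to 814 lower probes, 0 to 2 genes called higher, 0 to 1 called lower, and medians of -0.198 to -0.0277 for fibrillar and 0.00948 to 0.0722 for other collagens. The lowest counts came without the age_matched array carrying the mutant in Cy5. In all fits without 1 array a dye effect does not cancel in the set of that array. Over these alternatives 0 to 7 of the 43 genes changed the sign of their mean. The set difference has no value without an array. Signal over background leaves 14 genes unmeasured.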

Other observations

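Among the pathway and marker lists, 3 matrix genes differed between the sets in the direction of Col3a1. Each had a positive mean in the stage_matched and a negative mean in the age_matched set. Ddr2, a receptor kinase for fibrillar collagen, read 0.45 and -0.23 (difference -0.68, limma adjusted p = 0.0105). P4ha1, a catalytic subunit of collagen prolyl hydroxylase, read 0.30 and -0.31 (difference -0.61, adjusted p = 0.0301). Thbs1, the matricellular protein thrombospondin, read 0.08 and -0.61 (difference -0.69, adjusted p = 0.00935). On single stage_matched arrays Thbs1 read -0.15 and 0.30. They were 3 of the 76 tested genes of the 4 matrix lists, beside 2.11% of all tested genes, and the error behind these p values is technical, from hybridising the same pools in both dyes. The genes were singled out after their values were seen, and the differences share their arrays with that of Col3a1. These values are from the main fit, and those under the alternatives, where the Col3a1 call was lost in several, are not given here.

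RefSeq promoter windows (250 bases before to 50 after a start, GRCm38.p6) were found for 41 of the 57 genes, 45 windows in all. The letters TATAAA, searched on both strands, were in 5 of the 45 windows (11.1%), those of Col3a1, Col10a1, Col11a2, Col13a1 and Col17a1, and in 13.6% of all 32851 windows. Neither Col2a1 nor Sparc held the motif in its window. A match is a description of letters and not a binding site.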
